A study of Mus musculus with 6 samples.

Results

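The genes described here encode the enzymes, carriers and regulators that build fatty acids and join them to glycerol as triglyceride. They are 38 genes chosen by name, all 38 were found by symbol among the 18404 genes of the read-count table, and all passed the filter on low counts. They fall into 7 blocks: acetyl-CoA and NADPH supply (6 genes), synthase and carboxylases (3), elongases (8), desaturases (5), acyl-CoA synthetases (4), glycerolipid assembly (8) and regulators (4). RNA came from ears of mice aged 3 days after birth (skin only), with 3 control libraries (genotype labelled Control) and 3 from pups labelled ecko, in which Kdr (VEGFR2) was deleted in endothelial cells. Pups of both groups were treated with tamoxifen, recorded as daily doses of 60 µg from postnatal day 1 into the stomach or peritoneum, and the controls are described as littermates. The labels used here give neither the Cre driver nor the alleles of the controls, and do not say whether each library is 1 animal, so p-values measure the spread between these libraries. By its title the series asks how too little VEGFR2 in endothelium affects lymphatic and blood-forming gene programs.

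In fatty acid synthesis citrate leaves the mitochondrion, is split into acetyl-CoA, and acetyl-CoA is carboxylated to malonyl-CoA, from which fatty acid synthase builds palmitate with NADPH as reductant. Elongases and desaturases then lengthen the chain and add double bonds, acyl-CoA synthetases activate free fatty acids, and a series of acyltransferases builds triglyceride. SREBP-1c and ChREBP, the products of Srebf1 and Mlxipl, are the main transcription factors of the pathway. In skin these genes work in dermal and subcutaneous adipocytes, which store triglyceride, in sebaceous glands, which secrete lipid, and in the epidermis, where very long acyl chains form part of the barrier. Kdr is expressed mainly by endothelial cells, whereas these measurements cover all cells of the ear skin, so that fewer cells of a type and less RNA per cell cannot be told apart.

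Depth was even, with 16987130 to 17979182 expected counts (estimated reads per gene) in a library. Levels are given as CPM, counts scaled to a common library total after TMM normalisation, as the mean ± SD or for each library in the order of replicates 1, 2 and 3. Coordinates here and below are those of GRCm38.p6. For Kdr, the deleted gene (Entrez 16542, chromosome 5, 75932827 to 75979072), the levels were 89.9, 103 and 77.1 CPM in the controls and 19.4, 24.2 and 21.6 CPM in ecko. It fell by 2.05 ± 0.12 (SE) on the log2 scale (edgeR adjusted p 0.0002), in the direction of its labels. The tissue label was checked on the basal keratinocyte gene Krt5, at 3520.3 ± 205 CPM in the controls and 3288 ± 138 CPM in ecko (SD, n = 3), and the dermal collagen gene Col3a1, at 16406 ± 1231 CPM in the controls and 16870.2 ± 317 CPM in ecko (SD, n = 3). Control 2 and ecko 3 almost lacked reads of Y-linked genes, with a mean of -1.77 and -1.78 log2 CPM where the remaining 4 libraries had 5.55 to 5.86. Control 3 stood apart by its skeletal muscle genes, 8.15 log2 CPM on average against 8.57 to 8.93 in the others.

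Most genes of fatty acid and triglyceride synthesis had a slightly lower mean in ecko than in control skin. The mean was lower for 36 of the 38 (94.7%), against 50.5% of all genes, and the median log2 fold change was -0.14, against -0.00199 over all 14920 genes tested. In 16 of the 38 (42.1%) all 3 ecko libraries lay under all 3 controls, where 8.11% of all genes tested did so. In 0 all ecko libraries lay above, against 7.55% of all genes. None of the 38 passed the edgeR test after Benjamini-Hochberg adjustment over all genes, where 1 gene, Kdr, was called lower (0.0067%) and 0 genes higher (0%). At an unadjusted p under 0.05, 14 of the 38 (36.8%) were lower and 0 higher, against 4.1% lower and 4.92% higher over all genes. DESeq2 called 8 of the 38 lower and 0 higher, against 0.174% and 0.583% of all genes. Limma-voom called 0 of the 38, and 1 gene lower in all (0.0067%). Since the genes were listed with earlier results of these libraries known, these shares describe the list and do not test it. Among the 11764 genes with at least the mean CPM of Thrsp, the lowest of the 38 on that scale, 9.31% were lower without overlap and 4.77% lower at an unadjusted p under 0.05.

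The share of all expected counts that fell on the 38 genes was 0.541%, 0.568% and 0.542% for controls 1 to 3, and 0.462%, 0.498% and 0.475% for ecko 1 to 3. Summed, they had 5387, 5653 and 5589 CPM in the controls and 4574, 4968 and 4719 CPM in ecko. Every ecko library thus lay under every control in this sum, and ecko 1 and ecko 2 marked its lower and upper end. Over the 38 genes, ecko 1 was the lowest ecko library in 22 and the highest in 9, and ecko 2 was the highest in 21. Of the 16 without overlap, ecko 1 was the lowest in 12 and ecko 2 the highest in 13. Among the controls, control 2 was highest in 8 of these 16, control 3 in 6 and control 1 in 2.

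**Figure D1:**
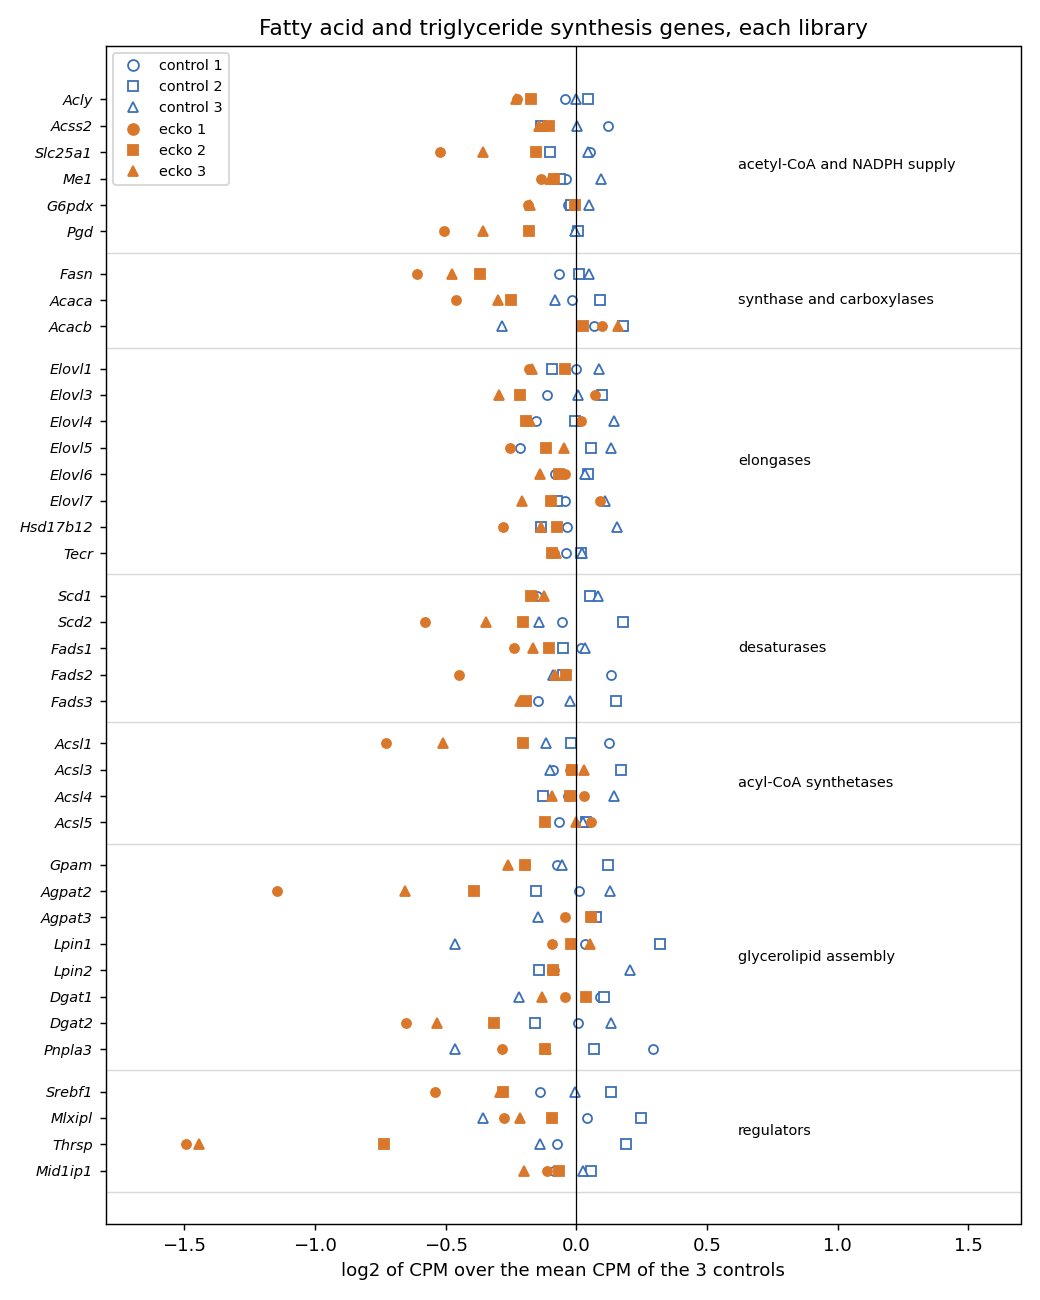
Each row is 1 gene and each symbol 1 library, placed on the x axis at the log2 of its CPM over the mean CPM of the 3 controls; open blue symbols are controls, filled orange symbols ecko, and shapes are replicates 1 to 3. The ecko libraries lie left of all controls in 16 of the 38 genes, with Thrsp and Agpat2 farthest to the left and the elongases close to 0.

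The promoters of 4 genes from this set of 16 are shown, because they come from separate steps of the pathway and carry the motifs searched for. Each is the stretch of 250 bases before the annotated start site, 5′ to 3′ on the gene's strand, from RefSeq in GRCm38.p6. The Fasn gene record reaches upstream of the start site used for its window. Capitals mark matches to any of 4 motifs searched on both strands: TCACNCCAC (the sterol regulatory element bound by SREBP), CACGTG (an E-box, as bound by ChREBP and USF proteins), CCAAT (bound by NF-Y) and GGGCGG (a GC box bound by Sp1).
Fasn (chr11:120824548-120824797, minus strand): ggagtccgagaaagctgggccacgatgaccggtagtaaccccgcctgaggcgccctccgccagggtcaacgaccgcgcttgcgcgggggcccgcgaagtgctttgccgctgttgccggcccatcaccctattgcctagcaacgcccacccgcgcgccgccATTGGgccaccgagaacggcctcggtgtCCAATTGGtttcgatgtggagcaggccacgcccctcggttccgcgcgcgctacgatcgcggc
Thrsp (chr7:97417551-97417800, minus strand): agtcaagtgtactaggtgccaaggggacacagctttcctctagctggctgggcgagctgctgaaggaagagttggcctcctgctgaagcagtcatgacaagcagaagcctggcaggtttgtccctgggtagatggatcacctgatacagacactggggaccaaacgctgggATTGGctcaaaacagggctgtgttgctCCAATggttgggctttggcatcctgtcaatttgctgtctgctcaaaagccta
Slc25a1 (chr16:17928220-17928469, minus strand): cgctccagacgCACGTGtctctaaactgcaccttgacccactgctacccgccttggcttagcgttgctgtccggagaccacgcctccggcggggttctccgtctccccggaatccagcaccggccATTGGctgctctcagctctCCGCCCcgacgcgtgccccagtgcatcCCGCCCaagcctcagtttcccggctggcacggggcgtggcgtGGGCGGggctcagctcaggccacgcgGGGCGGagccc
Acsl1, the downstream of its 2 annotated starts (chr8:46490716-46490965, plus strand): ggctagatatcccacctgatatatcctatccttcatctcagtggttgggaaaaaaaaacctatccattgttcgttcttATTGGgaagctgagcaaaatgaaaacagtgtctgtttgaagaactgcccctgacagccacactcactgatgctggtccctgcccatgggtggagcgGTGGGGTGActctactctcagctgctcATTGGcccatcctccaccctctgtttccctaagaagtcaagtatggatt
Fasn held 3 matches to CCAAT, at positions -90 to -86, -62 to -58 and -59 to -55 before the start site, the last pair overlapping on opposite strands. Thrsp held 2, at -79 to -75 and -52 to -48, and Acsl1 had 2 around a match to the sterol regulatory element at -76 to -68. The window of 300 bases at the upstream start of Acsl1 held 0 matches to CCAAT, 0 to the sterol regulatory element and 7 to the GC box. Among the 38 genes, the other match to the sterol regulatory element was in a window of Mlxipl, whose groups overlapped. The E-box of Slc25a1 lay at -239 to -234.

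Windows of 300 bases, which reach 50 bases past the start, were found for 32 of the 38 genes, 42 windows in all. CCAAT was in 54.8% of these windows, against 37.4% of all 32851 windows and 37.4% of the 14894 windows of genes tested here. The GC box was in 61.9%, against 35.7% and 58.7%, the E-box in 11.9%, against 7.15% and 9.27%, and the sterol regulatory element in 4.76% (2 windows), against 1.24% and 1.16%. By gene, 11 of the 13 genes lower without overlap that had a window held CCAAT, and 11 of the other 19. The GC box was in 10 of the 13 and 13 of the other 19. The E-box was in 1 of the 13 and 4 of the other 19, and the sterol regulatory element in 1 and 1. The shares over all genes are by window, so these counts by gene have no like share beside them. Genes with several windows have more chances of a match. They are Acsl1, Gpam, Me1, Pgd and Srebf1 of the 13, and Elovl1, Lpin2 and Mlxipl of the other 19. The differences between the 13 and the other 19 were not tested. A match is a run of letters and was not tested for binding, and the absence of a match in these windows says nothing on the factor.

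Fasn and Acaca, the synthase and the carboxylase that feeds it, were lower in every ecko library than in any control, whereas the groups overlapped in Acacb. Fasn (Entrez 14104, chromosome 11, 120805958 to 120825166) encodes the multidomain enzyme that makes palmitate. It had 233, 245 and 252 CPM in the controls and 159.6, 188 and 175 CPM in ecko. The highest ecko library was below the lowest control, the log2 fold change was -0.48 ± 0.07 (SE) with a 95% interval of -0.64 to -0.32, and the adjusted p was 0.15 with edgeR and 1.72e-05 with DESeq2. Acaca makes the malonyl-CoA used for synthesis (Entrez 107476, chromosome 11, 84129635 to 84401651), and had 121, 129.9 and 115 CPM in the controls and 88.6, 103 and 99.2 CPM in ecko. Its groups did not overlap either (log2 fold change -0.33 ± 0.07 (SE), adjusted p 0.259 with edgeR and 0.031 with DESeq2). Acacb makes malonyl-CoA at the mitochondrial surface, where it restrains fatty acid entry. It had 30.6, 33.1 and 24.0 CPM in the controls and 31.3, 29.8 and 32.7 CPM in ecko, and the ecko libraries lay within the range of the controls. Its log2 fold change was 0.10 ± 0.11 (SE) with an interval of -0.16 to 0.35, and turned to -0.02 without control 3, its lowest library.

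Of the regulators, Thrsp had the lowest log2 fold change of the 38 genes. Thrsp, a small lipogenic protein induced by thyroid hormone and carbohydrate (Entrez 21835, chromosome 7, 97412933 to 97417550), had 9.22, 11.1 and 8.82 CPM in the controls and 3.45, 5.83 and 3.57 CPM in ecko. Each ecko value was below every control, and the ecko 1 and ecko 3 values were alike while ecko 2 lay between them and the controls. The log2 fold change was -1.18 ± 0.21 (SE) with an interval of -1.64 to -0.72, and the adjusted p was 0.15 with edgeR and 0.000322 with DESeq2. Srebf1, which encodes SREBP-1 (Entrez 20787, chromosome 11, 60199084 to 60224186), had 106, 128 and 116 CPM in the controls and 80.0, 95.8 and 95.1 CPM in ecko. The groups did not overlap, with a log2 fold change of -0.37 ± 0.09 (SE) and an adjusted p of 0.33 with edgeR and 0.0491 with DESeq2. Mlxipl, the gene of the carbohydrate-responsive factor ChREBP, had -0.19 ± 0.16 (SE) with groups that overlapped. Mid1ip1, the paralog of Thrsp whose product promotes assembly of acetyl-CoA carboxylase into filaments, had -0.12 ± 0.07 (SE), also with overlap.

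All 6 supply genes had a lower mean in ecko, and 4 of them had no overlap (66.7%, against 8.11% of all genes lower without overlap). Pgd, a dehydrogenase of the pentose phosphate pathway that yields NADPH (Entrez 110208, chromosome 4, 149149991 to 149166705), had 137, 138 and 137 CPM in the controls and 96.8, 121 and 107 CPM in ecko. The controls were nearly equal while the ecko libraries spread more widely (SD 0.516 against 12.2 CPM). Its log2 fold change was -0.34 ± 0.08 (SE), with an adjusted p of 0.298 by edgeR and 0.0382 by DESeq2. Slc25a1, the carrier that exports citrate from mitochondria (Entrez 13358, chromosome 16, 17925211 to 17928219), had 65.8, 59.1 and 65.4 CPM in the controls and 44.2, 57.0 and 49.5 CPM in ecko, and Acly, which cleaves that citrate to acetyl-CoA (Entrez 104112, chromosome 11, 100476352 to 100528000), had 227, 241 and 233 CPM in the controls and 199.6, 207 and 199 CPM in ecko. Both were lower without overlap, with log2 fold changes of -0.34 ± 0.10 (SE) and -0.21 ± 0.06 (SE), and neither passed (adjusted p 0.402 and 0.373 with edgeR). Me1, the malic enzyme of the cytosol and another source of NADPH, also had no overlap, with a small difference of -0.11 ± 0.06 (SE). Acss2, which makes acetyl-CoA from acetate, had -0.12, and G6pdx, at the entry of the pentose phosphate pathway, had -0.12, both with overlap.

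Glycerolipid assembly split into genes that were lower without overlap (Agpat2, Dgat2 and Gpam) and 5 genes whose groups overlapped. The former made up 37.5% of the block, against 8.11% of all genes. Agpat2, which makes phosphatidic acid and whose loss causes congenital lipodystrophy in humans (Entrez 67512, chromosome 2, 26593057 to 26604417), had 57.8, 51.7 and 62.8 CPM in the controls and 26.0, 43.8 and 36.5 CPM in ecko. Ecko 1 was the lowest and ecko 2 the closest to the controls, and the groups did not overlap. The log2 fold change was -0.70 ± 0.17 (SE), and it ran from -0.88 to -0.52 when libraries were left out in turn. Dgat2, which adds the last acyl chain of triglyceride (Entrez 67800, chromosome 7, 99153663 to 99182713), had 182, 163 and 199 CPM in the controls and 116, 146 and 125 CPM in ecko. Its groups were separate, with a log2 fold change of -0.49 ± 0.10 (SE) and an interval of -0.71 to -0.27. Agpat2 and Dgat2 had adjusted p of 0.38 and 0.252 with edgeR and of 0.00306 and 0.00152 with DESeq2. Gpam, the mitochondrial acyltransferase that starts the pathway on glycerol phosphate (Entrez 14732, chromosome 19, 55067635 to 55127319), had 115, 132 and 117 CPM in the controls and 106, 106 and 101 CPM in ecko, a difference of -0.22 ± 0.07 (SE) (edgeR adjusted p 0.448). The phosphatidate phosphatase genes Lpin1 and Lpin2 had -0.02 and -0.09, Dgat1 had -0.04, Agpat3 0.03 and the lipid droplet acylhydrolase gene Pnpla3 -0.17, all with groups that overlapped. Lpin1 and Pnpla3 varied widely among the controls, Lpin1 from 22.4 CPM in control 3 to 38.6 CPM in control 2, so that their intervals were wide (-0.41 to 0.37 and -0.56 to 0.22).

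**Figure D2:**
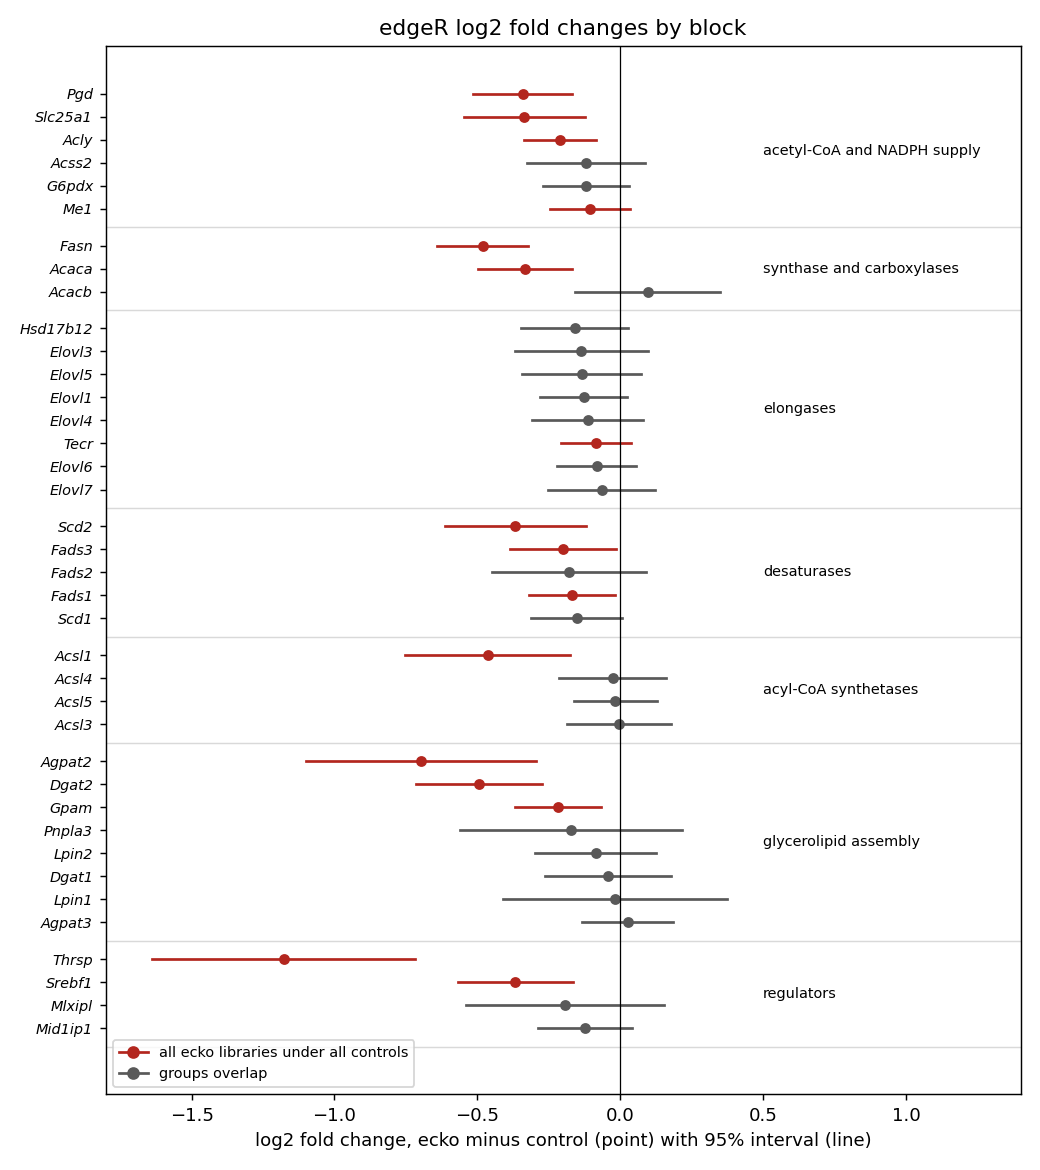
Each point is a gene's log2 fold change, ecko minus control, with its 95% interval from the edgeR fit, sorted within the 7 blocks; red marks genes in which all 3 ecko libraries lay under all 3 controls. Thrsp (-1.18) and Agpat2 (-0.70) lie lowest, and all 8 elongation genes lie between -0.16 and -0.06.

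Of the 4 acyl-CoA synthetase genes, 1 was lower without overlap between groups (25%, against 8.11% of all genes). This was Acsl1, the main form of adipocytes (Entrez 14081, chromosome 8, 46471037 to 46536051). It had 598, 541 and 506 CPM in the controls and 331, 476 and 385 CPM in ecko. The 3 ecko values differed from each other by more than the controls did, from far below the controls in ecko 1 to just below the lowest control in ecko 2. The log2 fold change was -0.46 ± 0.13 (SE) with an adjusted p of 0.416 by edgeR and 0.0162 by DESeq2. Acsl3, Acsl4 and Acsl5 had log2 fold changes of -0.00294, -0.03 and -0.02, each with overlap. Their 95% intervals were -0.18 to 0.18, -0.21 to 0.16 and -0.16 to 0.13. The interval of Acsl1, -0.75 to -0.176, overlapped that of Acsl4 and, narrowly, that of Acsl3, which began at -0.185. The difference between these genes was not tested.

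All 5 desaturase genes had a lower mean in ecko, and 0 passed edgeR, DESeq2 or limma-voom. Of the 5, 3 were lower without overlap and at an unadjusted p under 0.05 (60%, against 8.11% and 4.1% of all genes). Scd2, a stearoyl-CoA desaturase prominent in early life (Entrez 20250, chromosome 19, 44293676 to 44306864), had 573, 673 and 539 CPM in the controls and 399, 516 and 469 CPM in ecko. The groups were separate, with a log2 fold change of -0.37 ± 0.11 (SE) (edgeR adjusted p 0.447). Its neighbour Scd1, the main form of sebaceous glands and adult fat, had 467, 537 and 549 CPM in the controls and 462, 459.7 and 475 CPM in ecko, and control 1 lay among the ecko libraries (log2 fold change -0.15 ± 0.07 (SE)). Fads1, a desaturase of polyunsaturated fatty acids (Entrez 76267, chromosome 19, 10182877 to 10196874), had 63.0, 59.9 and 63.5 CPM in the controls and 52.6, 57.8 and 55.4 CPM in ecko. Fads3, a related gene of the same cluster (Entrez 60527, chromosome 19, 10040855 to 10060113), had 50.3, 61.8 and 54.7 CPM in the controls and 48.7, 48.7 and 48.0 CPM in ecko. Both were lower without overlap, with -0.17 ± 0.07 (SE) and -0.20 ± 0.08 (SE) and adjusted p of 0.532 and 0.539 by edgeR. Fads2, which carries out the entry step of polyunsaturated fatty acid synthesis, had -0.18 ± 0.12 (SE) with overlap. The counts of Scd1, Scd2, Elovl3 and Acsl3 were not whole numbers in at least 1 library. Part of their reads was therefore divided between features, and these 4 levels are less certain than the others. In all, 8 of the 38 genes lie on chromosome 19, among them these Scd and Fads genes.

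The chain elongation genes differed little between groups. All 8 had a lower mean in ecko, with log2 fold changes of -0.16 to -0.06 and a median of -0.12. Groups did not overlap in 1 of them (12.5%, against 8.11% of all genes lower without overlap). That gene was Tecr, the enoyl reductase of the elongation cycle, with 169.7 ± 4.02 CPM in the controls and 159.9 ± 0.952 CPM in ecko (SD, n = 3) and a log2 fold change of -0.09. Hsd17b12, the ketoacyl reductase of the cycle (Entrez 56348, chromosome 2, 94032697 to 94157909), had the smallest p of the block and 172, 159.9 and 196 CPM in the controls and 145, 167 and 159.9 CPM in ecko. Its groups overlapped (log2 fold change -0.16 ± 0.08 (SE), edgeR adjusted p 0.596). Elovl6, which lengthens palmitate, had 261 ± 12.4 CPM in the controls and 246 ± 8.65 CPM in ecko (SD, n = 3). Elovl4, which makes the very long chains of epidermal ceramides, had 471 ± 48.9 CPM in the controls and 435 ± 35.8 CPM in ecko (SD, n = 3), and Elovl3, a gene of sebaceous glands and brown fat, 37.1 ± 2.70 CPM in the controls and 33.8 ± 4.67 CPM in ecko (SD, n = 3). Elovl1, Elovl5 and Elovl7 had -0.13, -0.14 and -0.06. The median of the block ran from -0.15 without control 1 to -0.06 without control 3.

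**Figure D3:**
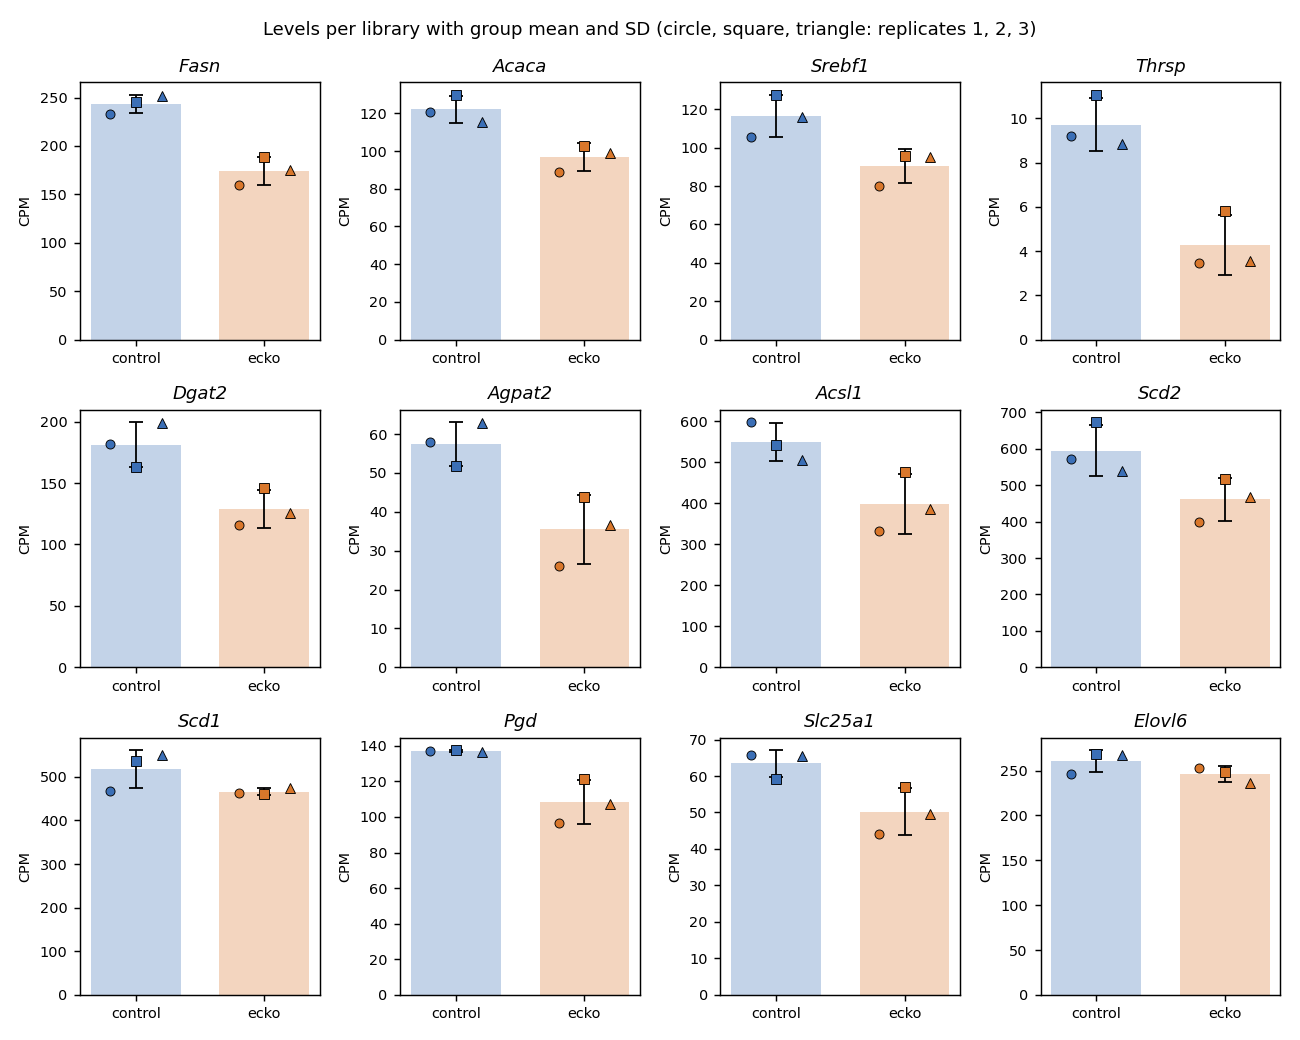
Bars give the mean CPM of 3 libraries, error bars the SD and symbols the single libraries, for 12 of the genes, with every axis starting at 0. In Fasn, Acaca, Srebf1, Thrsp, Dgat2, Agpat2, Acsl1, Scd2, Pgd and Slc25a1 no ecko library reaches the lowest control, whereas in Scd1 and Elovl6 the groups overlap.

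Set side by side, the blocks had median log2 fold changes of -0.33 (synthase and carboxylases), -0.28 (regulators), -0.18 (desaturases), -0.17 (supply), -0.13 (glycerolipid assembly), -0.12 (elongases) and -0.02 (acyl-CoA synthetases). A block's sum gives more weight to abundant genes, and by sum ecko was 0.816 of control for the acyl-CoA synthetases, where Acsl1 is most abundant. It was 0.766 for the synthase block, 0.802 for the regulators and 0.926 for the elongases. The median for glycerolipid assembly ran from -0.07 without control 1 to -0.22 without control 3, and that of the acyl-CoA synthetases from -0.01 without ecko 2 to -0.06 without ecko 1. The sums of 6 blocks did not overlap between groups, and those of the elongases did.

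Genes for related enzymes or partner proteins were compared within each library. The pairs were chosen after their values were seen, and are given without a test, since 3 against 3 libraries cannot reach an exact permutation p under 0.1. The log2 ratio of Dgat2 to Dgat1 was 2.23, 2.05 and 2.67 for controls 1 to 3 and 1.71, 1.97 and 1.91 for ecko 1 to 3. That of Agpat2 to Agpat3 was -1.33, -1.51 and -0.999 for controls 1 to 3 and -2.38, -1.72 and -1.99 for ecko 1 to 3, and that of Acaca to Acacb 1.98, 1.97 and 2.27 for controls 1 to 3 and 1.50, 1.79 and 1.60 for ecko 1 to 3. In these 3 pairs the groups were separate, with less of the named gene relative to its counterpart in ecko. Thrsp to Mid1ip1 was separate too, at -2.37, -2.24 and -2.54 for controls 1 to 3 and -3.76, -3.05 and -3.62 for ecko 1 to 3. The ratio of Acsl1 to Acsl5 was 1.86, 1.61 and 1.52 for controls 1 to 3 and 0.88, 1.58 and 1.15 for ecko 1 to 3, and that of Scd2 to Scd1 0.29, 0.33 and -0.03 for controls 1 to 3 and -0.21, 0.17 and -0.02 for ecko 1 to 3, and in both pairs the groups overlapped. The ratio of Fasn to Srebf1, the gene of its activator, overlapped as well (1.14, 0.94 and 1.12 for controls 1 to 3 and 1.00, 0.98 and 0.88 for ecko 1 to 3).

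Per kilobase of exon, the scale on which genes can be compared, Elovl4 was the most abundant of the 38 in control skin at 156 ± 16.2 CPM per kb (SD, n = 3). Scd2 (109 ± 12.8) and Scd1 (106 ± 9.05) followed and did not differ from each other beyond their spread. Elovl1, Tecr and Hsd17b12 came next at 78.8 ± 4.93, 77.4 ± 1.84 and 73.0 ± 7.57, again within their spread. Dgat2 (58.8 ± 5.90) and Acsl1 (52.3 ± 4.42) lay above Acly (44.3 ± 1.34) and Elovl6 (40.6 ± 1.93), and Fasn stood at 22.2 ± 0.888. Mlxipl (2.01 ± 0.411) and Acss2 (2.45 ± 0.214) were the lowest on this scale. Lengths are the union of all annotated exons of a gene, which exceeds the length of most transcripts, so neighbours in this order may change places with another length.

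Outside the 38 genes, other enzymes and regulators of the pathway were counted in 7 further lists, fatty acid oxidation included, with 74 genes tested. In 42 of the 74 the ecko mean was lower, the median log2 fold change was -0.0174, and 0 passed edgeR, with 7 lower and 2 higher at an unadjusted p under 0.05 and 2 called by DESeq2 and 0 by limma-voom. Groups did not overlap in 9 genes lower (12.2%, against 8.11% of all genes) and 3 higher (4.05%, against 7.55%). These 3 are all genes of fatty acid oxidation, a list with 0 genes lower without overlap. At an unadjusted p under 0.05 the shares were 9.46% lower, against 4.1% of all genes, and 2.7% higher, against 4.92%. Gpd1, which makes the glycerol phosphate backbone from glycolysis, had 240.5, 213 and 207 CPM in the controls and 101, 175 and 122 CPM in ecko, without overlap (log2 fold change -0.73 ± 0.20 (SE), edgeR adjusted p 0.459). Gpat3, an acyltransferase for the same backbone, had -0.48 ± 0.20 (SE) with overlap. Slc25a10, the dicarboxylate carrier, had 63.5 ± 1.27 CPM in the controls and 48.3 ± 6.14 CPM in ecko (SD, n = 3), and Taldo1, of the pentose phosphate pathway, 143 ± 5.61 CPM in the controls and 128 ± 10.1 CPM in ecko (SD, n = 3), the former without and the latter with overlap. Among other regulators, 12 of 20 had a lower mean (median -0.04), including Insig1, a retention protein and target of SREBPs (-0.31 ± 0.08 (SE)), and Srebf2, the regulator of sterol synthesis (-0.16 ± 0.06 (SE)), both without overlap. Scd4, a close relative of Scd1 and Scd2 whose reads may be shared with theirs, had -0.68 ± 0.29 (SE) from 1.48 CPM in the controls. Acsbg1, an acyl-CoA synthetase, had 0.24 ± 0.10 (SE), with overlap. The 5 mitochondrial fatty acid synthesis genes had a median of -0.08, and 0 were called at an unadjusted p under 0.05.

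Among 14 genes of fatty acid oxidation the ecko mean was higher in 9 (median log2 fold change 0.05), and 3 were higher (21.4%, against 7.55% of all genes) and 0 lower without overlap. With edgeR 0 passed and 1 was higher at an unadjusted p under 0.05 (7.14%, against 4.92% of all genes). DESeq2 called that 1 gene and limma-voom 0. The difference from the synthesis genes was not tested. Cpt1a, which admits long acyl chains to mitochondria and is inhibited by malonyl-CoA, had 128, 121 and 125 CPM in the controls and 173, 151 and 157 CPM in ecko. All ecko libraries were above all controls, with a log2 fold change of 0.36 ± 0.07 (SE) and an adjusted p of 0.165 by edgeR and 0.00298 by DESeq2.

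Markers of the cells that use this pathway were measured in the same libraries. All 15 adipocyte genes were tested, and the ecko mean was lower in 12 (median log2 fold change -0.18). Groups were separate in 4 genes lower (26.7%, against 8.11% of all genes) and 1 higher (6.67%, against 7.55%). With edgeR 0 passed and 6 were lower at an unadjusted p under 0.05 (40%, against 4.1% of all genes and 36.8% of the 38), and DESeq2 called 1 and limma-voom 0. Summed, they had 3741, 4249 and 3111 CPM in the controls and 2836, 3346 and 3405 CPM in ecko, with overlap, and the most abundant were Lpl and Fabp4, which other cells also express. A pair of genes of this list were singled out after their values were seen. The adipocyte hormone gene Adipoq had 245, 264 and 214 CPM in the controls and 179.7, 226 and 235 CPM in ecko (log2 fold change -0.18 ± 0.11 (SE)), and Plin1, which coats the lipid droplet, had 129, 126 and 112 CPM in the controls and 72.2, 105 and 91.5 CPM in ecko (-0.45 ± 0.13 (SE)). Adipoq overlapped between groups and Plin1 did not. Relative to Adipoq in the same library, the log2 ratio of Fasn was -0.07, -0.10 and 0.23 for controls 1 to 3 and -0.17, -0.26 and -0.42 for ecko 1 to 3, and that of Agpat2 -2.08, -2.35 and -1.77 for controls 1 to 3 and -2.79, -2.36 and -2.68 for ecko 1 to 3. With Adipoq as the denominator no ecko library reached a control in either ratio, Agpat2 by a narrow margin between control 2 and ecko 2. With Plin1 as the denominator both ratios overlapped between groups. The log2 ratio of Fasn to Plin1 was 0.85, 0.97 and 1.16 for controls 1 to 3 and 1.15, 0.84 and 0.93 for ecko 1 to 3, and that of Agpat2 to Plin1 -1.16, -1.28 and -0.84 for controls 1 to 3 and -1.47, -1.26 and -1.33 for ecko 1 to 3. Whether these genes differed relative to adipocyte markers thus depended on the marker. The part of adipocyte content in the values of the 38 genes was not tested.

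The 10 sebocyte genes had a summed level of 934 to 1110.4 CPM in the controls and 971 to 1016 CPM in ecko, led by Krt79, with 7 lower means and a median of -0.10, and 2 of the 10, Scd3 and Pparg, are also in the pathway lists. The melanocortin receptor gene Mc5r, a defining marker, had 0.03, and the wax synthase genes Awat1 and Awat2 had -0.20 and -0.30. Of the 6 brown adipocyte genes 5 were tested, with a median of -0.09, and Elovl3 of this list is also among the 38. The defining gene Ucp1 had 1 to 6 counts in a library. In differentiated keratinocytes 8 of 9 genes tested had a lower mean (median -0.07) and in basal keratinocytes 6 of 7 (median -0.03). The sums of both keratinocyte lists overlapped. Endothelial genes other than Kdr had a lower mean in 9 of 10 (median -0.16), with sums of 446 to 534 CPM in the controls and 407 to 437 CPM in ecko that did not overlap. Of these 10, 5 were lower without overlap (50%, against 8.11% of all genes and 42.1% of the 38) and 0 higher. With edgeR 0 passed, and 4 were lower at an unadjusted p under 0.05 (40%, against 4.1% of all genes and 36.8% of the 38). Macrophage genes had a higher mean in 8 of 8 (median 0.12). Of these 8, 1 was higher without overlap (12.5%, against 7.55% of all genes) and 0 lower. At an unadjusted p under 0.05, 2 were higher (25%, against 4.92% of all genes), and 0 passed edgeR. The medians of fibroblast, Schwann cell and skeletal muscle genes were 0.03, 0.07 and 0.04. The part of these cell types in the levels of the lipid synthesis genes was not tested.

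**Figure D4:**
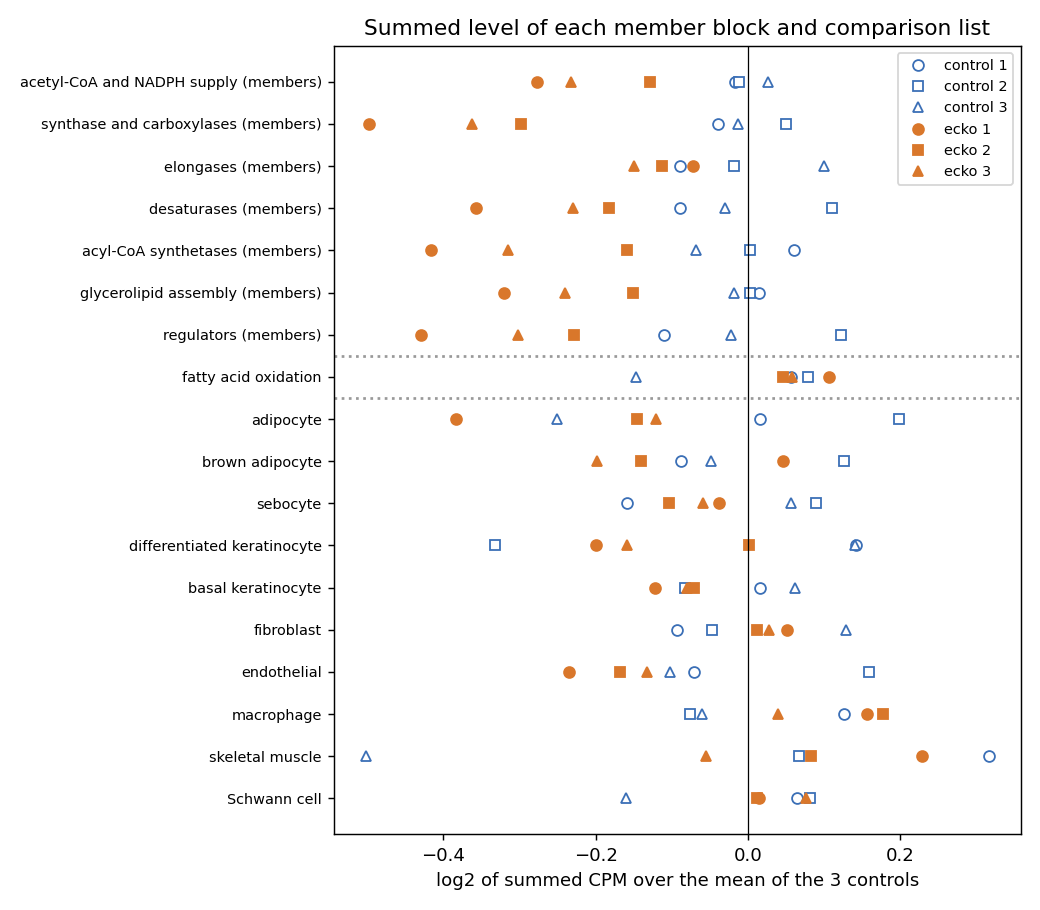
Each symbol is 1 library, at the log2 of the summed CPM of a list over the mean of the 3 controls; the upper 7 rows are blocks of the 38 genes and the lower rows fatty acid oxidation and cell type markers. In all blocks except the elongases the filled ecko symbols lie left of all open control symbols, and among the marker lists this holds for the endothelial list alone.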

How the data were processed

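The authors deposited a table of expected counts (estimated reads per gene, not scaled between libraries) from 6 poly(A) ear skin libraries. Per the submitters' processing notes HISAT2 2.2.1, Bowtie2 2.4.5, RSEM 1.3.1 and GRCm38.p6 were used. The role of each tool, the gene annotation and strandedness are not given in the sources used here. Whether reads of overlapping genes on opposite strands were told apart is therefore not known. Expected counts were rounded and tested with edgeR 4.0.16 (R 4.3.3; filterByExpr with a minimum count of 10, TMM, robust glmQLFit, glmQLFTest, two-sided, Benjamini-Hochberg over 14920 genes, threshold 0.05). SE is the absolute log2 fold change over the square root of F, and 95% intervals use the t distribution of that fit. Alternatives were DESeq2 1.42.0, limma-voom (limma 3.58.1), DESeq2 size factors, other filters, a replicate block, the mean level of skeletal muscle or of Y-linked genes as a covariate, and leaving out each library. The fits were tested on simulated data. log2 CPM uses a prior count of 2. Reads carry no molecular identifiers.

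Exon lengths come from GENCODE M21 and gene positions from RefSeq, both in GRCm38. Values in every library are given for those of the 38 genes with an unadjusted p under 0.05 and for the smallest p of each block. From each other pathway list at most 3 genes with such a p are named, not all with values in every library. The genes, lists and blocks were chosen with earlier results of these data known.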

Additional observations from a re-analysis of the deposited data

How the results depend on the processing

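The median of the 38 genes stayed below 0 under every alternative run, from -0.176 without ecko 2 to -0.128 with the skeletal muscle covariate, and the median of all genes moved by less than 0.01. Without control 3 it was -0.132. Genes lower without overlap numbered 17 to 20 with 1 library left out, where smaller groups overlap less by construction, and genes lower at an unadjusted p under 0.05 numbered 12 to 15 under all alternatives.

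Calls depended on the model. DESeq2 called 87 genes higher and 26 lower in all and 8 of the 38 lower (Fasn, Thrsp, Dgat2, Agpat2, Acsl1, Acaca, Pgd and Srebf1). The skeletal muscle covariate gave 66, 9 and 2 (Fasn and Thrsp), and the Y-linked covariate 1 higher in all and 0 of the 38. With 1 library left out 0 to 2 genes were called higher in all, and 0 of the 38 were called. The fit with a replicate block called 88 genes higher and 10 lower in all, and 3 of the 38 lower (Fasn, Thrsp and Srebf1). The labels used here do not say whether equal numbers pair the libraries. Deviations from the group means correlated across genes at 0.177, -0.281 and -0.0869 for equal numbers, and at 0.393 for control 2 with ecko 3. Control 2 and ecko 3 are the libraries that almost lacked reads of Y-linked genes. Such correlations cannot settle pairing, since the 3 deviations of a group sum to 0. For all of these the cause was not tested. The counts among the 38 genes under each alternative were added after the data were seen.

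Some genes changed sign. Acsl3 was 0.00089 without a low-count filter, 0.0019 with limma-voom, 0.0022 under the replicate block and 0.0044 under the Y-linked covariate. Limma-voom put Lpin1 at 0.012, the replicate block at 0.0086 and the Y-linked covariate at 0.0025. With 1 library left out the log2 fold change ran, for Acacb from -0.023 to 0.19, Acsl3 from -0.047 to 0.089, Acsl4 from -0.089 to 0.056, Acsl5 from -0.061 to 0.031, Agpat3 from -0.037 to 0.063, Dgat1 from -0.14 to 0.011, Elovl7 from -0.15 to 0.0013, Lpin1 from -0.20 to 0.17, Lpin2 from -0.15 to 0.036 and Pnpla3 from -0.35 to 0.00045. Thrsp, the lowest of the 38 by mean CPM, rested on 61 to 200 counts in a library.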

Other observations

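The genes named here were chosen after their values were seen. Leptin (Lep), an adipocyte hormone, had 18.5, 14.3 and 16.7 CPM in the controls and 3.56, 12.9 and 5.32 CPM in ecko, without overlap (log2 fold change -1.18 ± 0.45 (SE), edgeR adjusted p 0.542). Resistin (Retn), a secreted adipocyte protein, had 66.0, 64.3 and 46.1 CPM in the controls and 30.9, 50.1 and 35.7 CPM in ecko, with overlap. Lipe and Pnpla2, the genes of the main triglyceride lipases, had log2 fold changes of 0.03 and -0.06. Pparg, the master regulator of adipocytes, had 0.06. None of these 5 genes passed edgeR, and Lep and Retn were lower at an unadjusted p under 0.05. DESeq2 called 0 of them and limma-voom 0.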
